A study of Mus musculus with 11 samples.

Results

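The data compare the same pair of oncogenes acquired in opposite orders: CEBPA-first cells (4 RNA-seq libraries, replicates A to D) against CSF3R-first cells (3 libraries, replicates A to C), 7 of the 11 libraries of the series. All cells were lineage-negative bone marrow of mice labelled C57BL/6, carrying a pair of retroviral vectors. CEBPA-first cells expressed CEBPA V314VW from the constitutive, GFP-marked MIG vector and received CSF3R T618I in the inducible idsRed vector. CSF3R-first cells had the inserts exchanged, with CSF3R T618I in MIG and CEBPA V314VW in idsRed. The remaining 4 libraries, CSF3R-only, carried CSF3R T618I in MIG and an empty idsRed vector, and their levels are given beside some genes. The inducible insert is switched on by Cre recombinase, which 4-hydroxytamoxifen activates, and the study describes donors with Rosa26 ERT2-Cre for its order experiments; the labels give the strain of these donors but not their Cre genotype. Donors were 6 to 12 weeks old by the methods. Transduction took place with WEHI-conditioned medium, IL-3, IL-6 and stem cell factor. Lineage-negative cells positive for GFP and RFP were then sorted, and all 3 groups were cultured for 48 h with 4-hydroxytamoxifen in medium with serum but no added cytokine. The order of the oncogenes cannot be told apart from the vector that carried each of them or from how long each had been expressed. The labels do not say that replicates came from separate animals or cultures, so the p-values measure the spread between these libraries, which may be technical. Of 51912 genes in the count table, 15703 passed a filter on low counts and were tested.

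C/EBPα, the product of Cebpa, is the transcription factor that opens the granulocyte programme in myeloid progenitors, and mutations that damage its DNA-binding end occur in acute myeloid leukaemia. The G-CSF receptor, the product of Csf3r, signals through JAK kinases and STAT factors to drive neutrophil production and maturation, and activating mutations such as T618I are typical of chronic neutrophilic leukaemia. Neutrophils build their granules in sequence: myeloperoxidase and the serine proteases of azurophil granules are made by promyelocytes, and the proteins of specific and gelatinase granules are made later, under C/EBPε and related factors.

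Levels are CPM, the count of a gene relative to the TMM-normalized library size, and values are listed for CEBPA-first replicates A to D and then CSF3R-first replicates A to C. Fold changes are log2 of CEBPA-first over CSF3R-first from edgeR's quasi-likelihood test. A gene is said to rise or fall where its Benjamini-Hochberg adjusted p over all tested genes was under 0.05, and it is called where its log2 fold change was also at least 1 in size. The 7 libraries held 47905747 to 72268346 counts. CSF3R-first replicate A stood apart from its group: the chi-square per degree of freedom of its counts was 99.1 against replicate B and 74.5 against replicate C, while B against C gave 22.2 and pairs of CEBPA-first 9.11 to 34.8. List counts without this library are therefore given beside those with it where they differ. In bulk RNA, fewer cells of a type and less RNA per cell cannot be told apart.

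The blood cell identity of the samples was checked first. Ptprc, which encodes the pan-leukocyte antigen CD45, was at 644, 595, 637 and 464 CPM in CEBPA-first and 1001, 754 and 758 CPM in CSF3R-first (log2 fold change -0.52, standard error 0.13, edgeR adjusted p = 0.00638). Kit, the stem cell factor receptor of immature progenitors, was at 35.5, 40.6, 28.9 and 34.4 CPM in CEBPA-first and 23.9, 33.2 and 28.98 CPM in CSF3R-first, so the groups overlapped. Its log2 fold change of 0.28 did not pass (edgeR adjusted p = 0.0983), although it did without CEBPA-first replicate C (0.36, edgeR adjusted p = 0.0379) or without CSF3R-first replicate B (0.40, edgeR adjusted p = 0.0334). Markers of mature myeloid cells were present in both groups. Itgam, which encodes the CD11b chain of the Mac-1 integrin, was at 68.5, 53.98, 76.7 and 49.8 CPM in CEBPA-first and 279.8, 162 and 192 CPM in CSF3R-first (log2 fold change -1.76, standard error 0.18, edgeR adjusted p = 2.38e-05). Of the Itgam transcript, 73.8% is near-identical to Gm49368. Of 14 adhesion genes, 5 were called lower, Itgam among them (4 without CSF3R-first replicate A), against 10.3% of all tested genes. Cd3e, a marker of T cells, had no count.

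The mouse genes of both oncogenes were measured next, although the human cDNA in the vectors may add reads to them, which was not tested. Mouse Cebpa (ENSMUSG00000034957; chr7:35119293-35121928, coordinates in GRCm38) was at 161, 170.3, 161 and 173 CPM in CEBPA-first and 119.5, 132 and 140.0 CPM in CSF3R-first. Every CEBPA-first library lay above every CSF3R-first library, and the gene rose by a small amount (log2 fold change 0.35, standard error 0.07, edgeR adjusted p = 0.00221). Mouse Csf3r (ENSMUSG00000028859; chr4:126024550-126044440) was at 163, 152, 168 and 132 CPM in CEBPA-first and 650.0, 427 and 471 CPM in CSF3R-first. It was called lower in CEBPA-first (log2 fold change -1.75, standard error 0.14, edgeR adjusted p = 1.59e-06), although both groups carried a CSF3R T618I vector, and 3.5% of its longest transcript is near-identical to other genes. CSF3R-only libraries were at 846 ± 94.9 CPM (SD, n = 4).

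Across all tested genes, 2013 (12.8%) were called, 403 (2.57%) higher and 1610 (10.3%) lower in CEBPA-first. By adjusted p alone, 3767 genes (24.0%) were higher and 3806 (24.2%) lower, a split that the TMM scaling, which centres the fold changes near 0, in part sets. A log2 fold change of at least 3 in size was reached by 195 of the lower and 53 of the higher genes. The median log2 fold change of all tested genes was 0.000524. The groups did not overlap in 8193 genes (52.2%), which included 393 of the genes called higher and 1483 of those called lower. CSF3R-first replicate A lay farthest from the CEBPA-first mean in 1038 of the 1610 lower genes and 231 of the 403 higher genes. Without replicate A, 1726 genes were called, 356 higher and 1370 lower.

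**Figure D1:**
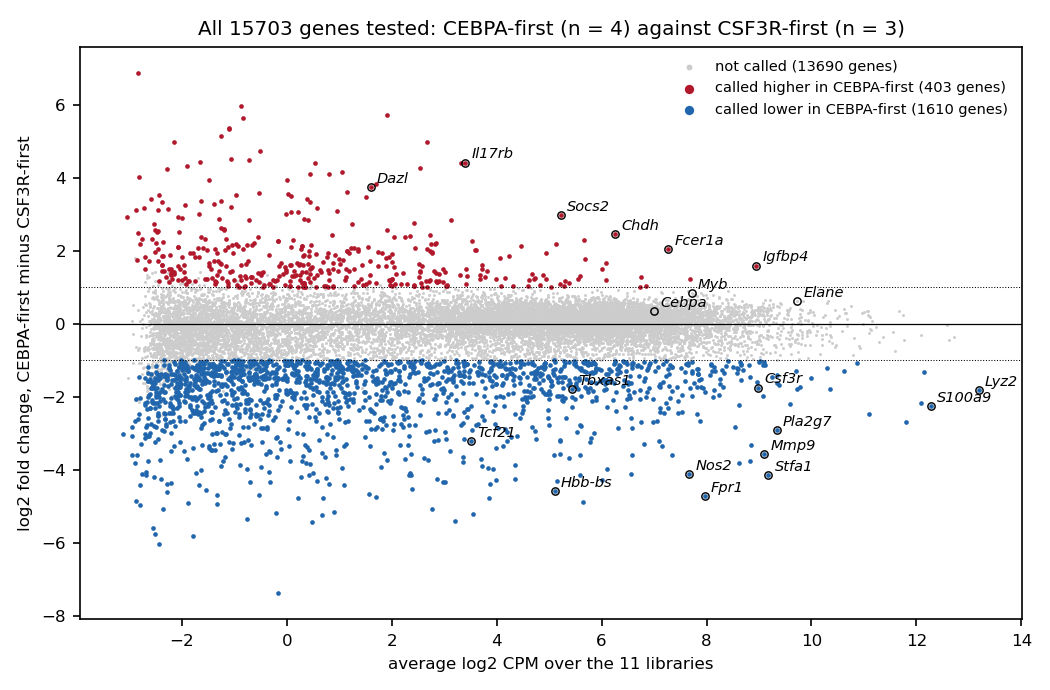
Log2 fold change of CEBPA-first over CSF3R-first (vertical axis) against the average log2 CPM over the 11 libraries (horizontal axis), 1 point for each of 15703 genes. The 1610 genes called lower (blue) reach into the most abundant genes of the table, such as S100a9 and Lyz2, while few of the 403 genes called higher (red) are abundant; dotted lines mark a log2 fold change of 1 in size.

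The gene with the smallest adjusted p, Il17rb, rose together with its neighbour Chdh. Il17rb (ENSMUSG00000015966; chr14:29996135-30008896, minus strand), which encodes the receptor for IL-25, was at 27.8, 26.9, 25.8 and 30.3 CPM in CEBPA-first and 1.197, 1.47 and 1.23 CPM in CSF3R-first. Its replicates were tight and the groups lay far apart (log2 fold change 4.41, standard error 0.12, edgeR adjusted p = 3.83e-10). Chdh (ENSMUSG00000015970; chr14:30009023-30040527, plus strand), the mitochondrial choline dehydrogenase, was at 190.0, 202, 181 and 163 CPM in CEBPA-first and 32.3, 39.2 and 28.6 CPM in CSF3R-first, again with no overlap (log2 fold change 2.46, standard error 0.12, edgeR adjusted p = 9.7e-08). In CSF3R-only, Il17rb was at 0.104 ± 0.0303 CPM (SD, n = 4) and Chdh at 1.99 ± 0.361 CPM (SD, n = 4). The annotated starts of these genes lie 127 bases apart on opposite strands, so that they are transcribed away from each other, and 3.8% of the exon bases of Il17rb and 9.5% of those of Chdh overlap exons of other genes. Among 1048 pairs of tested genes whose starts lay within 1000 bases of each other on opposite strands, heading apart, 2 pairs were both called higher, 12 were both called lower and 0 were called in opposite directions. The other pair of higher genes was Socs2 with the non-coding 5730420D15Rik, 195 bases apart, but the latter was at or below the level of 3 counts (0.0474 to 0.0609 CPM) in each CSF3R-first library.

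The RefSeq promoter window of Il17rb is shown because it covers the starts of both genes and the bases between them; it reaches past the annotated start of Chdh, so part of it lies within that gene. The window (GRCm38.p6, chr14:30008847-30009146, minus strand) runs from 250 bases before the start to 50 after it and is printed on the strand of Il17rb, with the 1 match to the AP-1 letters TGANTCA in capitals. These letters are their own reverse complement, and the match also lies in the first-listed window of Chdh on the other strand.
Il17rb: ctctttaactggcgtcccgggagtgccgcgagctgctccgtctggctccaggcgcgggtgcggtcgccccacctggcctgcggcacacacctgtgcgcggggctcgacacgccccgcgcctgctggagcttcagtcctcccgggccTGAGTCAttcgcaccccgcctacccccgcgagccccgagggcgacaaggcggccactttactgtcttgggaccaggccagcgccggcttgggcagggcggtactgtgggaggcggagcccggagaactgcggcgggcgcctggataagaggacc
The match begins 104 bases before the listed start of Il17rb. These letters occur in 7.9% of all 27025 RefSeq promoter windows, 5.4% of the windows of tested genes, 7.6% of those of genes called higher and 10.0% of those called lower, so the match is a description of the sequence only.

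Other genes with very small p-values followed. Dazl, an RNA-binding protein known from germ cells, was at 7.28, 7.62, 7.01 and 7.43 CPM in CEBPA-first and 0.426, 0.503 and 0.679 CPM in CSF3R-first and was called higher (log2 fold change 3.75, standard error 0.17, edgeR adjusted p = 2.8e-08). Itsn1, an endocytic scaffold, was at 105, 114, 105 and 91.96 CPM in CEBPA-first and 32.02, 30.4 and 28.4 CPM in CSF3R-first (log2 fold change 1.78, standard error 0.09, edgeR adjusted p = 1.07e-07). On the lower side, Tbxas1, the thromboxane synthase, was at 11.1, 10.9, 11.8 and 11.7 CPM in CEBPA-first and 40.1, 37.3 and 40.97 CPM in CSF3R-first. Its spread within each group was narrow and its fall correspondingly well measured (log2 fold change -1.79, standard error 0.06, edgeR adjusted p = 2e-09). Tcf21, a transcription factor of mesenchymal cells, was at 2.62, 2.66, 1.96 and 2.26 CPM in CEBPA-first and 21.6, 23.8 and 21.5 CPM in CSF3R-first, all CSF3R-first libraries being above the CSF3R-only mean of 12.3 ± 1.41 CPM (SD, n = 4). It was called lower in CEBPA-first (log2 fold change -3.23, standard error 0.12, edgeR adjusted p = 5.02e-09). Cd274, which encodes the checkpoint ligand PD-L1, was at 12.8, 12.7, 12.4 and 13.01 CPM in CEBPA-first and 31.5, 31.2 and 28.3 CPM in CSF3R-first (log2 fold change -1.25, standard error 0.06, edgeR adjusted p = 8.8e-08), and the metalloprotease gene Adam19 was also called lower (log2 fold change -2.90, standard error 0.13, edgeR adjusted p = 2.8e-08).

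Genes of later granules fell widely, while genes of the azurophil list moved by little and in both directions. Of 10 genes on the azurophil (primary) granule list, 0 were called in either direction, with a median log2 fold change of 0.05. By adjusted p, 5 rose and 3 fell, against 24.0% and 24.2% of all tested genes. Elane, Ctsg, Prtn3 and Mpo rose. The 3 falls were among the other members, Cst7, Ms4a3, Serpinb1a, Srgn, Gstm1 and Nkg7, not all of which encode granule proteins. Of 20 genes on the specific and gelatinase (secondary and tertiary) granule list, 15 were called lower and 0 higher, with a median of -1.60. Among all tested genes 10.3% were called lower and 2.57% higher. This list also holds the factor gene Cebpe and the receptor gene Ltb4r1. Without CSF3R-first replicate A, the number of later granule genes called lower was also 15, and 4 genes of the azurophil list rose and 1 fell. Without CEBPA-first replicate B or C, too, 1 gene of the azurophil list fell. The difference between the lists was not itself tested.

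Among azurophil genes, Elane, which encodes neutrophil elastase, was at 1209, 1130, 1220 and 1372 CPM in CEBPA-first and 887, 725 and 779 CPM in CSF3R-first. All CEBPA-first libraries lay above all CSF3R-first libraries (log2 fold change 0.63, standard error 0.10, edgeR adjusted p = 0.000367). Ctsg (cathepsin G) rose by 0.54 and Prtn3 (proteinase 3) by 0.37 on the log2 scale (edgeR adjusted p = 0.000678 and 0.00379). Mpo, myeloperoxidase, was at 2742, 2957, 2527 and 2722 CPM in CEBPA-first and 2307, 2561 and 2036 CPM in CSF3R-first, and the groups overlapped. Its rise (log2 fold change 0.25, standard error 0.10, edgeR adjusted p = 0.0459) was lost without any one of CEBPA-first replicates A, B and D or CSF3R-first replicates A and C, where the log2 fold change was 0.16 to 0.26. Cst7, another gene of the list, which encodes the protease inhibitor cystatin F, fell (log2 fold change -0.68, standard error 0.11, edgeR adjusted p = 0.0004302).

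Among later granule genes, Mmp9, the gelatinase that names the tertiary granule, was at 26.8, 27.01, 27.99 and 21.9 CPM in CEBPA-first and 454, 203 and 268 CPM in CSF3R-first. It showed the strongest fall of its list (log2 fold change -3.57, standard error 0.23, edgeR adjusted p = 7.25e-07), and CSF3R-only libraries were at 1247 ± 138 CPM (SD, n = 4). Ltf (lactoferrin) was at 14.04, 14.2, 10.02 and 8.03 CPM in CEBPA-first and 115, 53.1 and 50.2 CPM in CSF3R-first (log2 fold change -2.65, standard error 0.32, edgeR adjusted p = 7.37e-05). Ngp (neutrophilic granule protein) was at 40.1, 27.4, 26.3 and 20.2 CPM in CEBPA-first and 215, 91.9 and 91.1 CPM in CSF3R-first (log2 fold change -2.22, standard error 0.31, edgeR adjusted p = 0.000185). Both were highest in CSF3R-first replicate A, and every CSF3R-first library stayed above every CEBPA-first library. Lyz2 (lysozyme), made from early stages on, was at 2880, 1900, 2506 and 1977 CPM in CEBPA-first and 11990, 5894 and 6505 CPM in CSF3R-first (log2 fold change -1.81, standard error 0.23, edgeR adjusted p = 8.66e-05), and Lcn2 (lipocalin-2) was called lower too (log2 fold change -1.78, standard error 0.18, edgeR adjusted p = 1.54e-05). The chitinase-like Chil3 did not pass the test and overlapped between groups at 6976, 5307, 5934 and 4195 CPM in CEBPA-first and 8893, 5916 and 6061 CPM in CSF3R-first, with CSF3R-only libraries at 1167 ± 248 CPM (SD, n = 4).

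Promoter windows of genes from both granule classes are shown as examples, picked because they hold the letters of a myeloid factor; both classes hold both kinds of letters, and no difference between them was tested. Capitals mark the C/EBP letters TTGCNNAA, or their reverse complement TTNNGCAA, in Ngp (chr9:110419558-110419857, plus strand) and Ltf (chr9:111019042-111019341, plus strand), and the PU.1 letters GAGGAAGT, or ACTTCCTC, in Elane (chr10:79886062-79886361, plus strand) and Mpo (chr11:87793534-87793833, plus strand). All are RefSeq windows of GRCm38.p6, 250 bases before to 50 after the start.
Ngp: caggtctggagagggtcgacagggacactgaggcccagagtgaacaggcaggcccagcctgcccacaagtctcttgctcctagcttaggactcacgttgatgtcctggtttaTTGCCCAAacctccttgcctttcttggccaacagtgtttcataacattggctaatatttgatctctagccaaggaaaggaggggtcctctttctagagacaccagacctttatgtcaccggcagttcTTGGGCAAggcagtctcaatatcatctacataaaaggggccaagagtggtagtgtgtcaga
Ltf: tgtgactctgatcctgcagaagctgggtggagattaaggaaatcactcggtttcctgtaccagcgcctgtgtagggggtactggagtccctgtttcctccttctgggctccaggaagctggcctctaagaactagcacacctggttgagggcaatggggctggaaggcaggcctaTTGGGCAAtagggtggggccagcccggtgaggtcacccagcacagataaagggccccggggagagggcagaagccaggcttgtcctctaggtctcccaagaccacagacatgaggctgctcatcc
Elane: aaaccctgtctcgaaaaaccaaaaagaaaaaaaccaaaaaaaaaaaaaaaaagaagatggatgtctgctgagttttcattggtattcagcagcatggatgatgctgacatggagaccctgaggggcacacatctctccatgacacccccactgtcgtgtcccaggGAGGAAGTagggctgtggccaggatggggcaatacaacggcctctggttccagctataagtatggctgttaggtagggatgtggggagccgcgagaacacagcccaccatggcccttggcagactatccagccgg
Mpo: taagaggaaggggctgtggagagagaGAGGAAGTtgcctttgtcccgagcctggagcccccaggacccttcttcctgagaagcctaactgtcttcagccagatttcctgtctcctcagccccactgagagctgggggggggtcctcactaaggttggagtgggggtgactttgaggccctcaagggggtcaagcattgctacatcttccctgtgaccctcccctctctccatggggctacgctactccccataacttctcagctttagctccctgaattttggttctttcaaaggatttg
C/EBP letters stood in 8 of the 17 later granule genes with a window and in 2 of the 9 genes of the azurophil list with one. PU.1 letters stood in 4 of 17 and 3 of 9. Over all promoter windows the shares were 10.8% for C/EBP and 3.3% for PU.1. In windows of tested genes C/EBP letters occurred in 8.5%, in those of genes called higher in 10.8% (31 of 288) and in those called lower in 12.7% (133 of 1051). For PU.1 these shares were 3.5%, 1.7% and 4.7%. A match of letters is not a binding site, and no match says only that the letters are not in the window.

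**Figure D2:**
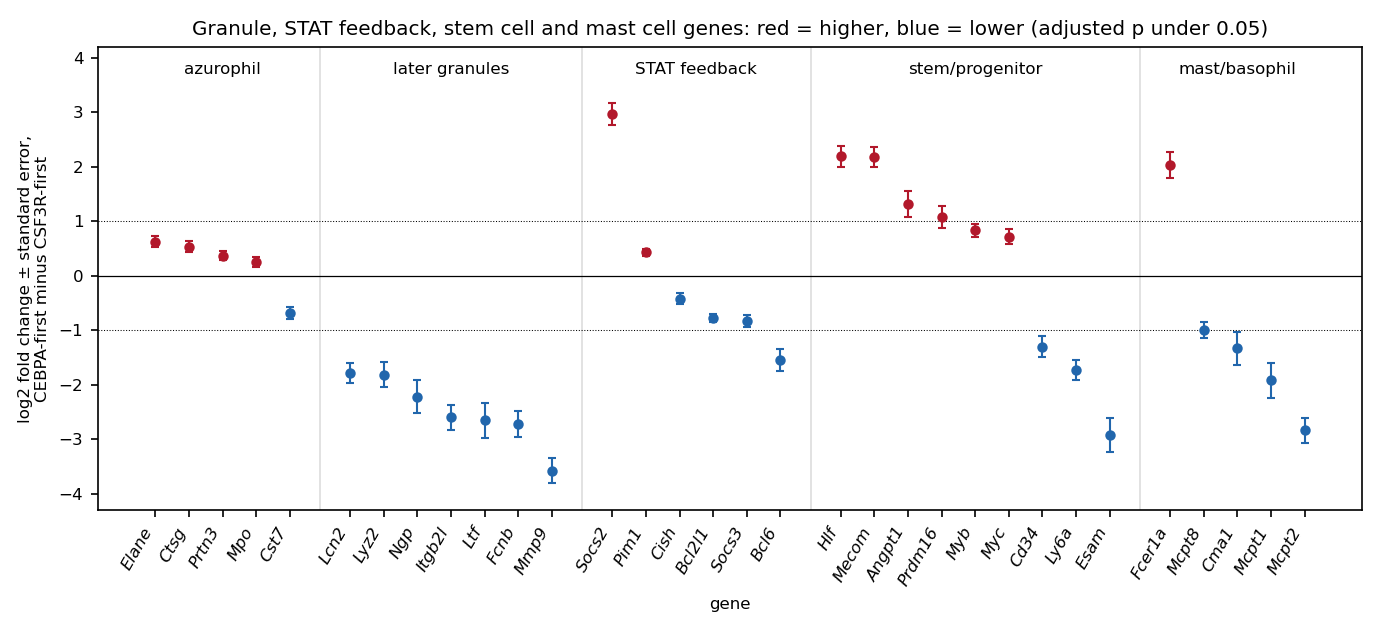
Log2 fold change with its standard error (vertical axis) for genes of azurophil granules, later granules, STAT feedback, stem and progenitor cells, and mast cells and basophils (horizontal axis). Elane, Ctsg, Prtn3 and Mpo lie above 0 and all later granule genes plotted at less than -1; Socs2, Hlf, Mecom and Fcer1a stand above 2 while other members of their lists fell.

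Calgranulins and stefins, cytosolic proteins abundant in neutrophils, made up the list with the lowest median. Of 13 genes tested, 12 were called lower, with and without CSF3R-first replicate A, against 10.3% of all tested genes. The median log2 fold change of the list was -3.35. S100a9, a subunit of calprotectin, was at 1335, 992, 1306 and 985 CPM in CEBPA-first and 7237, 4246 and 5050 CPM in CSF3R-first (log2 fold change -2.25, standard error 0.17, edgeR adjusted p = 1.36e-06). Its partner S100a8 was at 1294, 989, 1242 and 999.5 CPM in CEBPA-first and 6601, 4060 and 4537 CPM in CSF3R-first (log2 fold change -2.16, standard error 0.16, edgeR adjusted p = 1.04e-06). S100a8 and S100a9 belong to a run of 6 neighbouring tested genes on chromosome 3 (S100a4 to Pglyrp4), all called lower. Stfa1, a cysteine protease inhibitor of the stefin A family, was at 37.9, 28.8, 27.7 and 31.2 CPM in CEBPA-first and 774, 407 and 494 CPM in CSF3R-first. No CEBPA-first library came near the CSF3R-first range (log2 fold change -4.15, standard error 0.21, edgeR adjusted p = 1.91e-07). Of its longest transcript, 67.9% is near-identical to BC100530, so reads may have been split between these copies, which were both called lower.

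The stefin A genes form the longest run of neighbouring tested genes called in 1 direction. All 14 tested genes from Stfa2l1 to Stfa3 (chr16:36156811-36455392, GRCm38) were called lower, with log2 fold changes from -4.87 (Gm5416) to -1.95 (Gm10913). The run ended sharply on both sides. Ccdc58, the gene before it, had a log2 fold change of 0.33, and Cd86, the gene after it, -0.78, neither of them called. Ildr1, the next gene, was called higher at low counts (0.924, 1.21, 1.27 and 1.74 CPM in CEBPA-first and 0.264, 0.181 and 0.284 CPM in CSF3R-first; log2 fold change 2.39). Gm5416 was at 1.33, 1.09, 1.06 and 1.34 CPM in CEBPA-first and 51.8, 23.04 and 32.2 CPM in CSF3R-first, Stfa3 at 1.81, 1.5, 1.79 and 1.25 CPM in CEBPA-first and 37.6, 15.2 and 21.7 CPM in CSF3R-first, and Stfa2l1 at 13.5, 10.5, 11.4 and 9.19 CPM in CEBPA-first and 186, 93.9 and 125 CPM in CSF3R-first. In each of these genes CSF3R-first replicate A was highest and the groups lay well apart. Several members are small non-coding genes or near-identical copies (97% identity or more over 100 bases), so the 14 are not independent.

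The promoter window of Stfa1 (RefSeq, GRCm38.p6, chr16:36276898-36277197, plus strand) is shown with its 1 C/EBP match in capitals, which begins 109 bases before the start. The windows of Stfa2, Stfa3 and Stfa2l1 held no C/EBP letters.
Stfa1: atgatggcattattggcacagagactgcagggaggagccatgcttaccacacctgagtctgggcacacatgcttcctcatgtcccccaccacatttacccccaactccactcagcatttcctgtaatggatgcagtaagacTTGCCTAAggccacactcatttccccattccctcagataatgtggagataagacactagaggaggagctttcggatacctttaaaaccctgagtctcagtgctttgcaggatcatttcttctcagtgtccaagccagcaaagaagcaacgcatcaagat

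**Figure D3:**
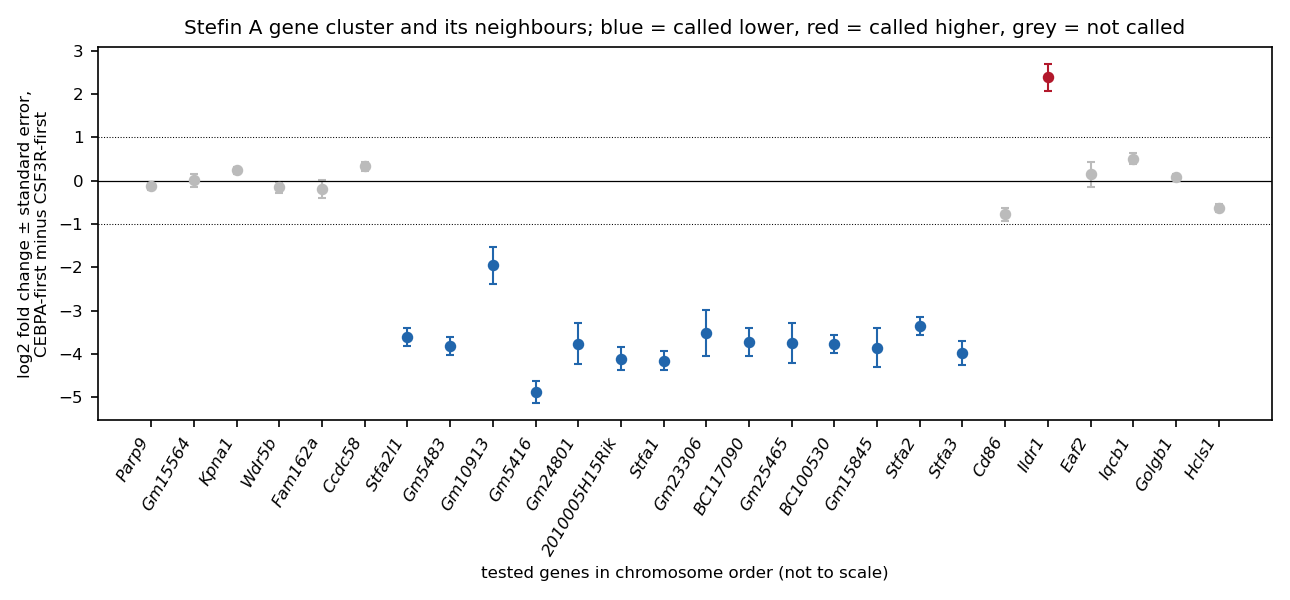
Log2 fold change with its standard error for tested genes in and around the stefin A cluster, in chromosome order and not to scale. The 14 genes of the cluster lie between -4.87 and -1.95, while their neighbours outside it lie within 1 of 0, apart from Ildr1.

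The longer runs of neighbours were on the lower side. There were 179 lower and 41 higher runs of exactly 2 genes. Among runs of exactly 3 neighbouring tested genes called in 1 direction, 55 were lower and 3 higher, and of 4 or more, 31 were lower and 0 higher, where 10.3% of all tested genes were called lower and 2.57% higher. A run of 6 on chromosome 17 (chr17:35170991-35205351) held Aif1, Lst1, Ltb, Tnf and Lta, genes of the inflammatory part of the MHC. A run of 4 on chromosome 7 (chr7:46711998-46754313) held the acute-phase serum amyloid A genes Saa3, Saa4, Saa1 and Saa2. Saa3 was at 793, 519.7, 804 and 437 CPM in CEBPA-first and 5999, 2992 and 3465 CPM in CSF3R-first (log2 fold change -2.70, standard error 0.27, edgeR adjusted p = 1.67e-05). The serpin genes Serpinb12, Serpinb2, Serpinb10 and Serpinb8 formed another run on chromosome 1, and Serpinb10 fell from 39.1, 16.96 and 27.9 CPM in CSF3R-first to 1.63, 1.35, 1.71 and 1.65 CPM in CEBPA-first (log2 fold change -4.14, standard error 0.25, edgeR adjusted p = 5.64e-07). Runs of 8 and 7 genes on chromosome 7 spanned Dusp8 to Tnnt3, with the cathepsin gene Ctsd and the leukocyte gene Lsp1, and Tmem86a to Gm5733, with Mrgpra6 and other Mrgpra receptor genes, of which Mrgpra2a and Mrgpra2b are near-identical. Tnnt3 was not called without CSF3R-first replicate C (log2 fold change -0.88, edgeR adjusted p = 0.0817), nor Mrgpra6 without CSF3R-first replicate A (-2.17, edgeR adjusted p = 0.0517). Without replicate A the log2 fold changes of Tmem86a (-0.94), Mrgpra2a (-0.93) and Mrgpra2b (-0.76) were also short of a call.

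Receptors by which phagocytes sense bacteria and complement were lower in most cases. Of 25 chemoattractant and pattern recognition receptor genes, 14 were called lower, where 10.3% of all tested genes were, and 0 higher (13 and 0 without CSF3R-first replicate A). The median log2 fold change was -1.26. By adjusted p 23 fell and 2 did not pass the test, while without CSF3R-first replicate A 19 fell. Fpr1, the formyl peptide receptor, was at 7.57, 6.65, 6.09 and 4.88 CPM in CEBPA-first and 260.5, 115 and 125 CPM in CSF3R-first. It fell more than any other gene of the list (log2 fold change -4.73, standard error 0.28, edgeR adjusted p = 4.04e-07). Fpr2 was at 3.15, 2.95, 3.46 and 2.39 CPM in CEBPA-first and 56.3, 25.9 and 26.4 CPM in CSF3R-first (log2 fold change -3.61, standard error 0.26, edgeR adjusted p = 1.64e-06). C5ar1, the receptor of complement C5a, was at 38.9, 26.4, 40.3 and 23.4 CPM in CEBPA-first and 262, 126 and 153 CPM in CSF3R-first (log2 fold change -2.48, standard error 0.25, edgeR adjusted p = 1.57e-05). These 3 genes shared a pattern, with CSF3R-first replicate A well above replicates B and C and all CEBPA-first libraries far below. Cxcr2, the neutrophil chemokine receptor (log2 fold change -2.02, standard error 0.21, edgeR adjusted p = 2.15e-05), and Tlr2, the receptor for bacterial lipoproteins (log2 fold change -1.97, standard error 0.16, edgeR adjusted p = 2.8e-06), were called lower, and Ccr2, the chemokine receptor of monocytes, fell by less (log2 fold change -0.87, standard error 0.15, edgeR adjusted p = 0.000785).

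Lectin, Fc and paired immunoglobulin-like receptors gave a similar picture. Of 29 genes, 17 were called lower and 1 higher (14 lower without CSF3R-first replicate A), against 10.3% and 2.57% of all tested genes. The median of the list was -1.19. Clec4n, which encodes the fungal receptor dectin-2, was at 30.7, 21.3, 29.8 and 20.1 CPM in CEBPA-first and 212, 95.8 and 106 CPM in CSF3R-first (log2 fold change -2.44, standard error 0.25, edgeR adjusted p = 2.07e-05). Treml4 was at 0.941, 1.09, 0.806 and 0.575 CPM in CEBPA-first and 17.6, 7.97 and 7.76 CPM in CSF3R-first (log2 fold change -3.71, standard error 0.34, edgeR adjusted p = 8.01e-06). The exception was Mgl2, a galactose-binding lectin, at 7.103, 8.92, 6.03 and 6.24 CPM in CEBPA-first and 2.496, 1.85 and 1.23 CPM in CSF3R-first, which was called higher (log2 fold change 1.94, standard error 0.25, edgeR adjusted p = 6.56e-05), although 42.6% of its transcript is near-identical to Clec10a. Clec10a rose as well (log2 fold change 1.68, standard error 0.13, edgeR adjusted p = 1.05e-06).

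The oxidative killing machinery was mostly lower. Of 9 phagocyte oxidase and nitric oxide genes, 7 fell, with and without CSF3R-first replicate A, and 2 of these, Nos2 and Cybb, were called. Among all tested genes 24.2% fell and 10.3% were called lower. Cybb, the catalytic subunit of the NADPH oxidase, was at 315, 247, 282 and 215 CPM in CEBPA-first and 1188, 722 and 708 CPM in CSF3R-first (log2 fold change -1.72, standard error 0.19, edgeR adjusted p = 2.7e-05). Ncf4, a cytosolic subunit, was at 197, 171, 192 and 172 CPM in CEBPA-first and 414, 274 and 299.9 CPM in CSF3R-first (log2 fold change -0.85, standard error 0.12, edgeR adjusted p = 0.000117). Nos2, the inducible nitric oxide synthase, was at 10.7, 9.46, 14.6 and 3.77 CPM in CEBPA-first and 227, 96.9 and 169.9 CPM in CSF3R-first, with the lowest CEBPA-first value in replicate D (log2 fold change -4.11, standard error 0.37, edgeR adjusted p = 8.69e-06).

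Enzymes that make and break lipid mediators were called lower in 10 of 14 cases, the same number as without CSF3R-first replicate A, with a median of -1.16. Among all tested genes 10.3% were called lower. Pla2g7, the plasma enzyme that breaks down platelet-activating factor, was at 90.6, 61.3, 96.8 and 53.7 CPM in CEBPA-first and 856, 393 and 448 CPM in CSF3R-first (log2 fold change -2.90, standard error 0.27, edgeR adjusted p = 9.99e-06). Alox5, which starts leukotriene synthesis, was at 102, 108, 112 and 127 CPM in CEBPA-first and 262, 208 and 247 CPM in CSF3R-first (log2 fold change -1.09, standard error 0.09, edgeR adjusted p = 1.87e-06), and its partner Alox5ap was called lower too (log2 fold change -1.20, standard error 0.14, edgeR adjusted p = 3.67e-05). Ptgs1, cyclooxygenase 1, was at 80.5, 79.1, 76.3 and 77.7 CPM in CEBPA-first and 196, 160.0 and 156 CPM in CSF3R-first, with narrow groups (log2 fold change -1.12, standard error 0.07, edgeR adjusted p = 3.44e-07). Ptges, a prostaglandin E synthase, rested in part on 1 library: it was at 1.06, 1.11, 1.09 and 0.741 CPM in CEBPA-first and 7.79, 2.48 and 2.54 CPM in CSF3R-first (log2 fold change -2.10, standard error 0.38, edgeR adjusted p = 0.00112), and without CSF3R-first replicate A its log2 fold change was -1.33 (edgeR adjusted p = 0.000384).

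Monocyte and macrophage genes were lower with exceptions. Of 26 genes, 13 were called lower and 1 higher, against 10.3% and 2.57% of all tested genes, and the median was -1.01. Without CSF3R-first replicate A, 9 were called lower and 2 higher. Cx3cr1, the fractalkine receptor, was at 1.75, 1.88, 2.304 and 1.95 CPM in CEBPA-first and 23.5, 13.1 and 13.1 CPM in CSF3R-first (log2 fold change -3.07, standard error 0.22, edgeR adjusted p = 1.6e-06). Apoe, apolipoprotein E, was at 61.5, 33.4, 81.8 and 25.3 CPM in CEBPA-first and 577, 214 and 289.5 CPM in CSF3R-first, variable in both groups but without overlap (log2 fold change -2.84, standard error 0.40, edgeR adjusted p = 0.0002104). Csf1r, the M-CSF receptor, was called lower (log2 fold change -1.40, standard error 0.21, edgeR adjusted p = 0.000343). F13a1, the coagulation factor XIII subunit of monocytes, was at 4461, 4008, 4534 and 3027 CPM in CEBPA-first and 3790, 2381 and 3205 CPM in CSF3R-first and did not pass the test (log2 fold change 0.36, standard error 0.16, edgeR adjusted p = 0.0762). Without CSF3R-first replicate A it passed at 0.53 (edgeR adjusted p = 0.0177), and without CEBPA-first replicate D at 0.47 (edgeR adjusted p = 0.0173). The hemoglobin scavenger receptor gene Cd163 was called higher at low counts (0.993, 1.45, 1.04 and 0.919 CPM in CEBPA-first and 0.284, 0.161 and 0.284 CPM in CSF3R-first; log2 fold change 2.15, standard error 0.29, edgeR adjusted p = 8.62e-05).

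Cytokine and chemokine genes moved in both directions, more of them down. Of 26, 11 were called lower and 3 higher (10 and 2 without CSF3R-first replicate A), against 10.3% and 2.57% of all tested genes. Il1b, interleukin 1β, was at 7.001, 5.08, 7.03 and 7.201 CPM in CEBPA-first and 120.4, 55.3 and 62.9 CPM in CSF3R-first (log2 fold change -3.59, standard error 0.25, edgeR adjusted p = 1.16e-06), and Tnf at 6.76, 5.2, 5.05 and 4.63 CPM in CEBPA-first and 28.1, 22.04 and 15.7 CPM in CSF3R-first (log2 fold change -2.02, standard error 0.19, edgeR adjusted p = 1.01e-05). Both were far lower in every CEBPA-first library. Il1a had 1 high library, at 0.1198, 0.171, 0.0768 and 0.1404 CPM in CEBPA-first and 5.82, 0.765 and 0.648 CPM in CSF3R-first (log2 fold change -4.20, standard error 0.74, edgeR adjusted p = 0.000886), and without CSF3R-first replicate A its log2 fold change was -2.43 (edgeR adjusted p = 2.31e-05). The genes called higher were Il6, Il10 and Ccl24. Il6 was at 24.4, 30.01, 28.4 and 40.3 CPM in CEBPA-first and 8.503, 16.5 and 20.1 CPM in CSF3R-first (log2 fold change 1.03, standard error 0.29, edgeR adjusted p = 0.0133), a rise that missed the threshold without CSF3R-first replicate A (log2 fold change 0.75, edgeR adjusted p = 0.0509) and was 0.87 without CEBPA-first replicate D. The anti-inflammatory Il10 was at 2.93, 3.48, 3.71 and 4.98 CPM in CEBPA-first and 1.096, 1.63 and 1.26 CPM in CSF3R-first (log2 fold change 1.51, standard error 0.26, edgeR adjusted p = 0.000539).

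Lysosomal genes moved in small steps. Of 36, 28 fell and 0 rose by adjusted p and 3 were called, with a median of -0.56; without CSF3R-first replicate A, 24 fell and 1 was called. Of all tested genes, 24.2% fell and 10.3% were called lower, so the called share of this list was no higher than that. Ctsb, cathepsin B, was at 957, 735, 992 and 603 CPM in CEBPA-first and 2411, 1400 and 1412 CPM in CSF3R-first (log2 fold change -1.08, standard error 0.21, edgeR adjusted p = 0.00152). It was not called without CSF3R-first replicate A (-0.77) or without CEBPA-first replicate D (-0.96), though it still fell. Ctse, cathepsin E, was at 5.73, 5.23, 4.99 and 5.76 CPM in CEBPA-first and 8.04, 7.99 and 9.18 CPM in CSF3R-first (log2 fold change -0.63, standard error 0.10, edgeR adjusted p = 0.000255). Of 13 MHC class II genes, 5 fell and 1 rose (6 and 1 without CSF3R-first replicate A). H2-Eb1, a class II β chain, was at 4.28, 3.87, 6.201 and 4.53 CPM in CEBPA-first and 16.6, 9.94 and 8.94 CPM in CSF3R-first (log2 fold change -1.32, standard error 0.21, edgeR adjusted p = 0.000457); the 2 class II genes called lower, H2-Eb1 and H2-Aa, numbered 0 without CSF3R-first replicate A, where H2-Eb1 came out just short of the fold threshold and H2-Aa had a log2 fold change of -0.80. Of 30 interferon-stimulated genes, 6 rose and 14 fell (4 and 10 without that library), against 24.0% and 24.2% of all tested genes. The antiviral genes Ifit3 (log2 fold change 1.05, edgeR adjusted p = 0.0331) and Mx1 (log2 fold change 1.09, edgeR adjusted p = 0.0252) were called higher and the nucleic acid sensor gene Zbp1 lower (log2 fold change -1.11, standard error 0.14, edgeR adjusted p = 5.78e-05), and without that library 0 were called higher and 1 lower.

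**Figure D4:**
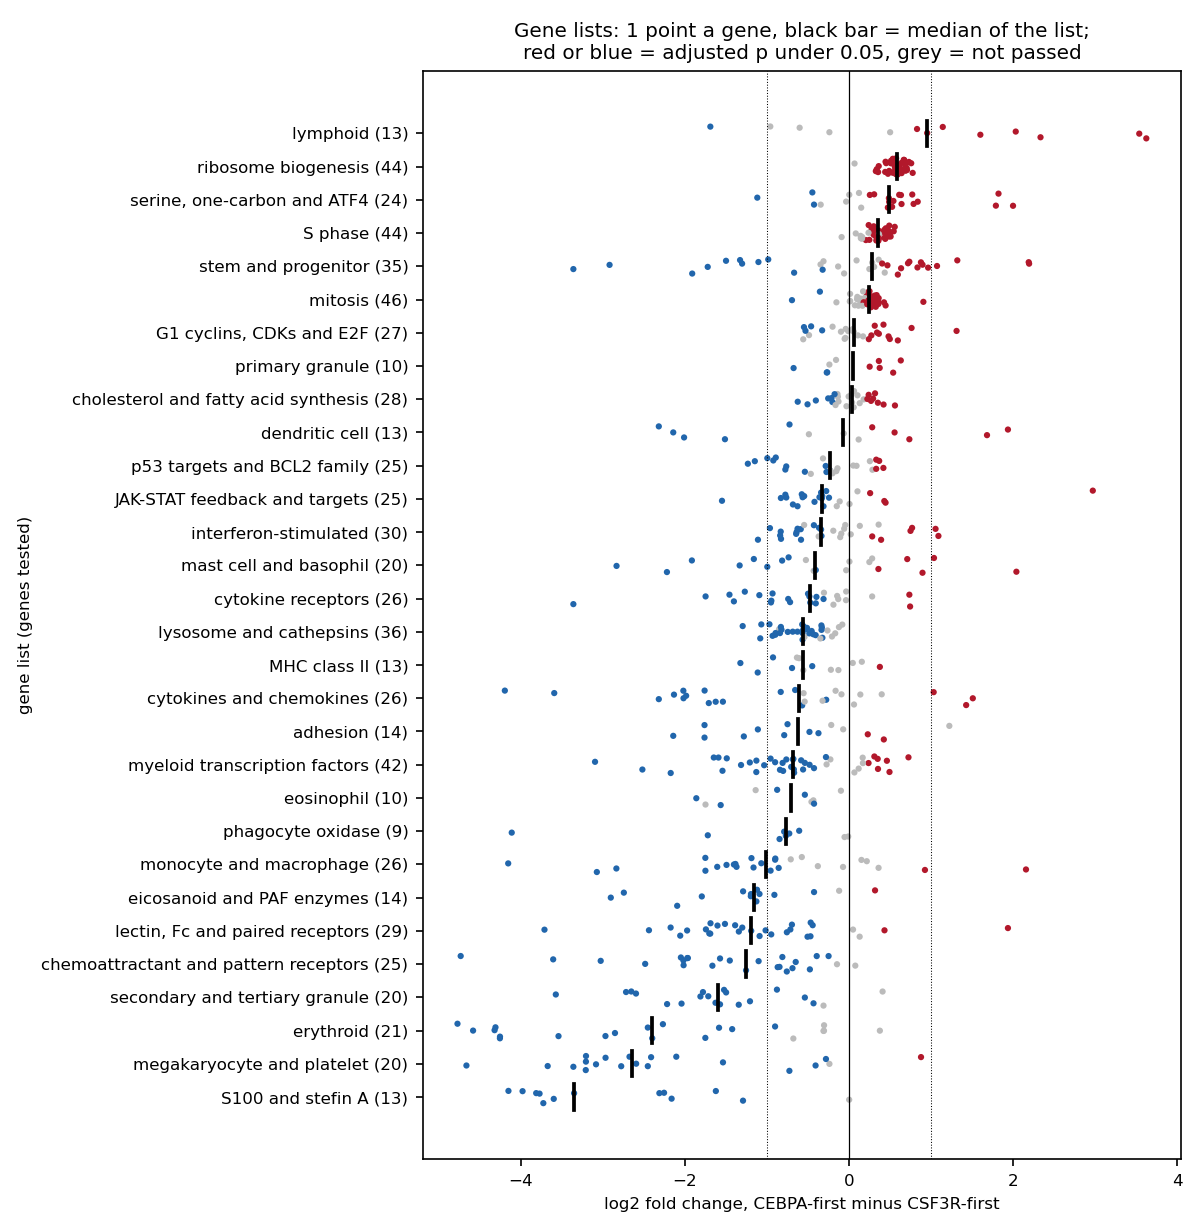
Log2 fold change of CEBPA-first over CSF3R-first (horizontal axis) for the tested members of 30 gene lists (vertical axis, number of genes tested in brackets), 1 point a gene, with a black bar at the median of each list. Medians run from -3.35 for S100 and stefin A genes to 0.95 for lymphoid genes; genes of ribosome biogenesis and S phase lie in narrow bands above 0, and stem and progenitor genes are spread to both sides.

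Signalling below the G-CSF receptor was read from the JAK-STAT list. Of 25 genes, 17 fell and 4 rose by adjusted p (16 and 3 without CSF3R-first replicate A), against 24.2% and 24.0% of all tested genes. The list had a median of -0.33, and only 1 of its genes was called in each direction. Socs2, a feedback inhibitor induced by STAT5, was at 82.5, 88.8, 84.9 and 98.1 CPM in CEBPA-first and 7.47, 13.5 and 12.9 CPM in CSF3R-first. Among genes whose average log2 CPM was 4 or more it had the largest rise (log2 fold change 2.97, standard error 0.20, edgeR adjusted p = 8.62e-07), while CSF3R-only libraries were at 5.65 ± 1.08 CPM (SD, n = 4); 10.7% of its transcript is near-identical to Gm9847. Socs3, the feedback inhibitor that binds the activated G-CSF receptor, went the other way, at 245, 224, 264 and 197 CPM in CEBPA-first and 488, 348 and 406 CPM in CSF3R-first (log2 fold change -0.83, standard error 0.11, edgeR adjusted p = 0.000112). Cish, a relative of both, was at 7.48, 7.96, 7.16 and 7.46 CPM in CEBPA-first and 9.802, 9.84 and 10.6 CPM in CSF3R-first (log2 fold change -0.42, standard error 0.10, edgeR adjusted p = 0.00446). Bcl6, a transcriptional repressor, was called lower at 24.1, 19.1, 24.4 and 15.8 CPM in CEBPA-first and 83.5, 47.9 and 51.3 CPM in CSF3R-first (log2 fold change -1.55, standard error 0.20, edgeR adjusted p = 0.000106). Among survival genes, Pim1 rose (log2 fold change 0.43, standard error 0.07, edgeR adjusted p = 0.000299), while Bcl2l1 (log2 fold change -0.78, standard error 0.08, edgeR adjusted p = 6.55e-06) and Mcl1 (log2 fold change -0.77, standard error 0.13, edgeR adjusted p = 0.000652) fell. The kinase gene Jak2 fell by 0.33 and the factor gene Stat3 by 0.31 on the log2 scale (edgeR adjusted p = 0.00651 and 0.00466), and Stat5a had a log2 fold change of 0.10 that did not pass (edgeR adjusted p = 0.144).

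Promoter windows of the feedback genes that fell are shown for their STAT letters TTCNNNGAA, in capitals, which are their own reverse complement. Cish (RefSeq, GRCm38.p6, chr9:107296409-107296708, plus strand) held 2 matches, the first at the start itself, and Socs3 (chr11:117969317-117969616, minus strand) held 1, which begins 154 bases before the start.
Cish: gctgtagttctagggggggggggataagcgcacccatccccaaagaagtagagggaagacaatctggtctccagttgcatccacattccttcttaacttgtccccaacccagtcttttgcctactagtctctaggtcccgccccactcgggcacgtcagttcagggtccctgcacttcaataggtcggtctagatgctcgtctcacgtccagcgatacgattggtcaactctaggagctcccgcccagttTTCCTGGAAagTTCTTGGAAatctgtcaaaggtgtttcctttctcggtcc
Socs3: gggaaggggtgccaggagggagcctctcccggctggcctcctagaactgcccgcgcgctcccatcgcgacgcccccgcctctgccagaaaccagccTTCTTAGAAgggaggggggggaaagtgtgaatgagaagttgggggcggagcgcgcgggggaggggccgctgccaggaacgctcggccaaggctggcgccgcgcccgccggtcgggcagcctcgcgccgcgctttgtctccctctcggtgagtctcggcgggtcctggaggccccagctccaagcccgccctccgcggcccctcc
STAT letters stood in 3 of the 22 JAK-STAT genes with a window, and no window of Socs2 was used here, so the feedback genes that rose and fell are not compared. The letters occurred in 8.5% of all promoter windows, 7.0% of those of tested genes, 8.0% of those of genes called higher and 7.5% of those called lower.

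Cytokine receptor genes, Csf3r among them, were lower in part. Of 26 genes, 6 were called lower and 0 higher (5 and 0 without CSF3R-first replicate A), against 10.3% and 2.57% of all tested genes. Tnfrsf1b, a TNF receptor, was called lower at 179, 158, 171 and 126 CPM in CEBPA-first and 571, 383 and 352 CPM in CSF3R-first (log2 fold change -1.46, standard error 0.17, edgeR adjusted p = 3.64e-05). Csf2rb, the shared β chain of the IL-3, IL-5 and GM-CSF receptors, overlapped between groups at 1161, 1248, 1282 and 1415 CPM in CEBPA-first and 1410, 1419 and 1543 CPM in CSF3R-first and did not pass (log2 fold change -0.19, standard error 0.08, edgeR adjusted p = 0.0774), but did pass without CEBPA-first replicate D (log2 fold change -0.24, edgeR adjusted p = 0.0341).

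Transcription factors of the C/EBP family did not move as one. Cebpa rose slightly, as given above, and Cebpg, a family member without an activation domain, rose too (log2 fold change 0.24, standard error 0.06, edgeR adjusted p = 0.00398). Cebpb, the C/EBP of emergency granulopoiesis and macrophages, was called lower, at 232, 186, 222 and 198 CPM in CEBPA-first and 603, 384 and 389 CPM in CSF3R-first (log2 fold change -1.13, standard error 0.17, edgeR adjusted p = 0.000234), but its log2 fold change was -0.88 without CSF3R-first replicate A, short of a call. Cebpd was at 96.7, 80.7, 86.3 and 81.6 CPM in CEBPA-first and 191, 129.9 and 134 CPM in CSF3R-first (log2 fold change -0.81, standard error 0.12, edgeR adjusted p = 0.000275). Cebpe, which switches on specific granule genes, was at 27.6, 24.98, 30.4 and 27.02 CPM in CEBPA-first and 50.6, 31.01 and 38.3 CPM in CSF3R-first (log2 fold change -0.54, standard error 0.14, edgeR adjusted p = 0.00594), and without CSF3R-first replicate A its log2 fold change was -0.33 (edgeR adjusted p = 0.0233). Cebpe was itself counted in the later granule list above. Its fall was smaller than that of most later granule genes named there, a comparison of values that was not tested.

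Over the whole list of 42 myeloid transcription factors, 29 fell and 7 rose by adjusted p, with a median of -0.68. In the list, 12 were called lower, and 7 without CSF3R-first replicate A, where 25 fell and 6 rose. Of all tested genes, 24.2% fell and 24.0% rose, and 10.3% were called lower. Spi1, which encodes PU.1, was at 362, 334, 342 and 328 CPM in CEBPA-first and 610.3, 455 and 445 CPM in CSF3R-first (log2 fold change -0.56, standard error 0.10, edgeR adjusted p = 0.000739). Gfi1, the repressor that favours neutrophils over monocytes, rose within tight groups, at 44.8, 45.5, 44.9 and 42.7 CPM in CEBPA-first and 31.6, 34.6 and 28.7 CPM in CSF3R-first (log2 fold change 0.49, standard error 0.07, edgeR adjusted p = 0.000129). Irf8, the monocyte and dendritic cell factor, did not pass and overlapped (log2 fold change 0.12, standard error 0.09, edgeR adjusted p = 0.323). Id2 (log2 fold change -1.54, standard error 0.17, edgeR adjusted p = 3.23e-05) and Klf2 (log2 fold change -1.59, standard error 0.18, edgeR adjusted p = 4.6e-05) were called lower. Etv1 was at 0.633, 0.494, 1.13 and 0.434 CPM in CEBPA-first and 5.68, 1.91 and 3.78 CPM in CSF3R-first (log2 fold change -2.52, standard error 0.36, edgeR adjusted p = 0.000211), with 21.8% of its transcript near-identical to Gm5454.

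Stem and progenitor genes moved in both directions. Of 35, 4 were called higher and 8 lower, and by adjusted p 14 rose and 11 fell (11 and 10 without CSF3R-first replicate A, with 5 called higher and 8 lower). Of all tested genes, 2.57% were called higher and 10.3% lower, and 24.0% rose and 24.2% fell by adjusted p. Of the 4 called higher, 3 encode transcription factors: Mecom, Hlf and Prdm16. Mecom, which encodes the leukaemia-associated EVI1, was at 15.1, 17.5, 15.9 and 13.1 CPM in CEBPA-first and 2.42, 4.49 and 3.24 CPM in CSF3R-first (log2 fold change 2.19, standard error 0.18, edgeR adjusted p = 2.17e-06). Hlf, a factor of hematopoietic stem cells, was at 10.7, 14.6, 12.2 and 18.4 CPM in CEBPA-first and 2.902, 3.501 and 2.78 CPM in CSF3R-first (log2 fold change 2.19, standard error 0.20, edgeR adjusted p = 3.61e-06). Myb was at 318, 349, 323 and 333 CPM in CEBPA-first and 149, 211 and 198 CPM in CSF3R-first (log2 fold change 0.83, standard error 0.12, edgeR adjusted p = 0.000192) and Myc at 446, 476, 457 and 480.0 CPM in CEBPA-first and 232, 318 and 298 CPM in CSF3R-first (log2 fold change 0.72, standard error 0.13, edgeR adjusted p = 0.00104). Prdm16 (log2 fold change 1.07, standard error 0.20, edgeR adjusted p = 0.00103) and the ligand gene Angpt1 (log2 fold change 1.32, standard error 0.23, edgeR adjusted p = 0.000784) completed the genes called higher, though Prdm16 was just short of a call without CEBPA-first replicate B (0.99) or CSF3R-first replicate B (0.94), and Erg rose within narrow groups (6.78, 7.4, 6.797 and 7.15 CPM in CEBPA-first and 3.86, 3.68 and 3.81 CPM in CSF3R-first; log2 fold change 0.89, standard error 0.10, edgeR adjusted p = 1.82e-05).

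The stem and progenitor genes called lower included those of the surface proteins Esam, Procr, Ly6a, Slamf1 and Cd34. Cd34, the progenitor antigen, was at 16.1, 19.8, 17.8 and 17.8 CPM in CEBPA-first and 28.9, 44.6 and 58.9 CPM in CSF3R-first (log2 fold change -1.30, standard error 0.19, edgeR adjusted p = 0.000259). Ly6a, which encodes Sca-1, was at 63.5, 47.3, 75.3 and 66.6 CPM in CEBPA-first and 236, 185 and 205 CPM in CSF3R-first (log2 fold change -1.72, standard error 0.18, edgeR adjusted p = 2.71e-05). Esam, an adhesion molecule of stem cells and megakaryocytes, was at 0.496, 0.341, 0.288 and 0.421 CPM in CEBPA-first and 1.54, 3.14 and 4.16 CPM in CSF3R-first (log2 fold change -2.92, standard error 0.31, edgeR adjusted p = 1.51e-05). Replicate A of CSF3R-first was the lowest of its group in Cd34 and Esam and the highest in Ly6a. Procr, the endothelial protein C receptor, rested on this library: it was at 1.49, 1.43, 1.52 and 1.49 CPM in CEBPA-first and 12.7, 2.07 and 2.04 CPM in CSF3R-first (log2 fold change -1.91, standard error 0.54, edgeR adjusted p = 0.0125), and without it the log2 fold change was -0.47 (edgeR adjusted p = 0.0629). Slamf1, which encodes CD150, was called lower (log2 fold change -1.33, standard error 0.24, edgeR adjusted p = 0.000879).

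**Figure D5:**
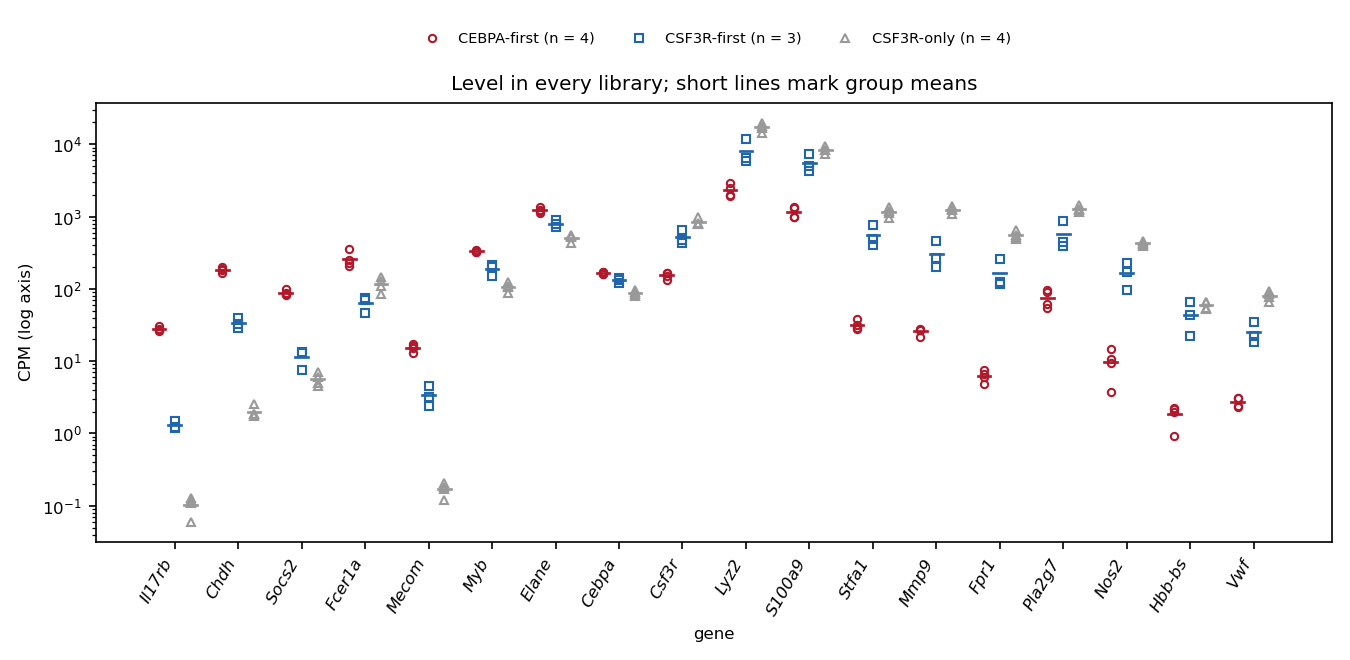
CPM on a log axis (vertical) of 18 genes (horizontal) in every library of CEBPA-first (red circles), CSF3R-first (blue squares) and CSF3R-only (grey triangles), with a short line at each group mean. Il17rb, Chdh and Socs2 are higher in every CEBPA-first library than in every other library shown, and Stfa1, Mmp9, Fpr1 and Nos2 are lower; CSF3R-first replicate A stands above the other CSF3R-first libraries for many neutrophil genes and below them for Hbb-bs and Vwf.

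Genes of dividing cells rose widely but by little. Of 44 S phase genes, 36 rose and 0 fell by adjusted p, 0 were called, and the median was 0.35; of 46 mitosis genes, 29 rose and 2 fell, with a median of 0.24. Without CSF3R-first replicate A, 28 S phase and 20 mitosis genes rose. Of all tested genes, 24.0% rose and 24.2% fell. Mcm6, a subunit of the replicative helicase, was at 636, 701, 599 and 624 CPM in CEBPA-first and 400.0, 496 and 456 CPM in CSF3R-first (log2 fold change 0.51, standard error 0.10, edgeR adjusted p = 0.00156). Ect2, which sets the site of cell division, was at 347, 337, 322 and 277 CPM in CEBPA-first and 162, 184 and 167 CPM in CSF3R-first and had the largest rise of the mitosis list (log2 fold change 0.90, standard error 0.08, edgeR adjusted p = 3.41e-06), whereas the phosphatase gene Cdc25b fell (log2 fold change -0.70, standard error 0.07, edgeR adjusted p = 1.33e-05). Among G1 regulators the D cyclins differed. Ccnd2 was at 74.99, 80.97, 83.3 and 85.5 CPM in CEBPA-first and 25.6, 36.8 and 35.8 CPM in CSF3R-first and was called higher (log2 fold change 1.31, standard error 0.15, edgeR adjusted p = 4.6e-05), Ccnd3 fell (log2 fold change -0.33, standard error 0.06, edgeR adjusted p = 0.00118), and their kinase gene Cdk6 rose (log2 fold change 0.59, standard error 0.15, edgeR adjusted p = 0.00571). E2f2 fell, at 142, 133, 133 and 122 CPM in CEBPA-first and 209, 177 and 197 CPM in CSF3R-first (log2 fold change -0.55, standard error 0.07, edgeR adjusted p = 8.59e-05).

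Ribosome biogenesis shifted as a block: 43 of 44 genes rose and 0 fell by adjusted p, 0 were called, and the median was 0.58 (40 rose without CSF3R-first replicate A). Ncl, nucleolin, was at 1774, 2050, 1677 and 1908 CPM in CEBPA-first and 926, 1460 and 1246 CPM in CSF3R-first (log2 fold change 0.61, standard error 0.14, edgeR adjusted p = 0.00393). Nolc1, a nucleolar chaperone, was at 321, 375, 313.8 and 361 CPM in CEBPA-first and 152, 242 and 215 CPM in CSF3R-first (log2 fold change 0.76, standard error 0.15, edgeR adjusted p = 0.00151). CSF3R-first replicate A was the lowest library for both. By comparison, 24.0% of all tested genes rose by adjusted p.

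Amino acid and one-carbon genes rose in 16 of 24 cases and fell in 3, with a median of 0.49 (15 and 3 without CSF3R-first replicate A). Psat1, of serine synthesis, was at 374, 389.6, 357 and 375 CPM in CEBPA-first and 177, 238 and 214 CPM in CSF3R-first (log2 fold change 0.84, standard error 0.11, edgeR adjusted p = 9.64e-05), and Shmt2, the mitochondrial enzyme that takes one-carbon units from serine, was at 423, 451, 408 and 449.5 CPM in CEBPA-first and 206, 292 and 256 CPM in CSF3R-first (log2 fold change 0.79, standard error 0.12, edgeR adjusted p = 0.000267). Cysteine supply genes parted. Cth, which makes cysteine from cystathionine, was at 14.3, 13.01, 16.2 and 11.7 CPM in CEBPA-first and 3.73, 2.84 and 3.78 CPM in CSF3R-first (log2 fold change 1.997, standard error 0.17, edgeR adjusted p = 2.08e-06), while Slc7a11, the cystine importer, was at 36.6, 35.1, 35.5 and 29.1 CPM in CEBPA-first and 91.2, 73.8 and 56.9 CPM in CSF3R-first and was called lower (log2 fold change -1.12, standard error 0.18, edgeR adjusted p = 0.000546). Without CSF3R-first replicate A its log2 fold change was -0.94, short of a call. Of 28 cholesterol and fatty acid synthesis genes, 8 rose and 7 fell, 0 were called, and without CSF3R-first replicate A 3 rose and 4 fell. With all libraries these shares are near those of all tested genes, 24.0% and 24.2%. In the list of p53 targets and BCL2 family genes, 11 of 25 fell and 4 rose (9 and 3 without that library), the p53-induced autophagy gene Trp53inp1 being called lower (log2 fold change -1.23, standard error 0.16, edgeR adjusted p = 0.000133).

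Markers of other blood lineages also differed between the groups, and their part in the results above was not tested. Of 21 erythroid genes, 15 were called lower and 0 higher (17 and 0 without CSF3R-first replicate A), against 10.3% and 2.57% of all tested genes. The erythroid median was -2.40. Hbb-bs, a β-globin, was at 0.924, 1.96, 2.29 and 2.18 CPM in CEBPA-first and 22.6, 43.7 and 66.2 CPM in CSF3R-first (log2 fold change -4.58, standard error 0.35, edgeR adjusted p = 2.57e-06). Slc4a1, the red cell anion exchanger, was at 0.599, 1.96, 1.59 and 1.03 CPM in CEBPA-first and 11.7, 25.1 and 36.7 CPM in CSF3R-first (log2 fold change -4.25, standard error 0.40, edgeR adjusted p = 1.04e-05), and Alas2, the erythroid heme enzyme, at 0.188, 0.426, 0.7104 and 0.383 CPM in CEBPA-first and 3.39, 8.15 and 12.5 CPM in CSF3R-first (log2 fold change -4.25, standard error 0.44, edgeR adjusted p = 2.38e-05). In all 3 genes CSF3R-first replicate A was the lowest of its group, where it was the highest for Mmp9, Fpr1 and Stfa1. Gata1, the factor of erythroid, megakaryocyte and mast cells, did not pass, at 28.3, 31.4, 33.2 and 42.8 CPM in CEBPA-first and 23.9, 46.5 and 55.2 CPM in CSF3R-first (log2 fold change -0.31, standard error 0.25, edgeR adjusted p = 0.345), but did pass without CSF3R-first replicate A (log2 fold change -0.58, edgeR adjusted p = 0.0432). The summed level of the erythroid list was 699 to 789 CPM in CEBPA-first and 589.6 to 1478 CPM in CSF3R-first. Its most abundant member was Tfrc, the transferrin receptor gene, and Hbb-bs, Slc4a1 and Alas2 made up little of the sum in CEBPA-first.

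Of 20 megakaryocyte and platelet genes, 15 were called lower and 0 higher (16 lower without CSF3R-first replicate A), against 10.3% and 2.57% of all tested genes. Their median was -2.64. Pf4, platelet factor 4, was at 26.4, 25.3, 36.4 and 35.5 CPM in CEBPA-first and 131, 102 and 165 CPM in CSF3R-first (log2 fold change -2.11, standard error 0.17, edgeR adjusted p = 4.17e-06). Vwf, von Willebrand factor, was at 2.38, 3.12, 3.07 and 2.35 CPM in CEBPA-first and 18.5, 22.3 and 34.4 CPM in CSF3R-first (log2 fold change -3.21, standard error 0.21, edgeR adjusted p = 8.69e-07), and Treml1 at 0.171, 0.222, 0.461 and 0.357 CPM in CEBPA-first and 3.02, 3.803 and 4.79 CPM in CSF3R-first (log2 fold change -3.67, standard error 0.25, edgeR adjusted p = 4.87e-07). No CEBPA-first library reached the CSF3R-first range in these genes. Thbs1, thrombospondin 1, overlapped between groups at 306, 256, 483 and 151 CPM in CEBPA-first and 389, 249 and 420.5 CPM in CSF3R-first and did not pass (log2 fold change -0.24, standard error 0.30, edgeR adjusted p = 0.545). The list summed to 823 to 1176 CPM in CEBPA-first and 1305 to 1683 CPM in CSF3R-first.

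Mast cell and basophil genes were mixed, 2 of 20 being called higher and 5 lower (1 and 6 without CSF3R-first replicate A), against 2.57% and 10.3% of all tested genes. Fcer1a, the IgE-binding chain of the high-affinity IgE receptor, was at 207, 248, 228 and 357 CPM in CEBPA-first and 46.3, 73.6 and 70.1 CPM in CSF3R-first (log2 fold change 2.04, standard error 0.24, edgeR adjusted p = 5.05e-05). It was higher in every CEBPA-first library than in any CSF3R-first library. Mcpt2, a mast cell protease, was at 0.428, 0.818, 0.749 and 0.8299 CPM in CEBPA-first and 4.69, 4.23 and 6.27 CPM in CSF3R-first (log2 fold change -2.83, standard error 0.23, edgeR adjusted p = 1.77e-06), and Mcpt8, the basophil protease, fell without being called, at 139, 164, 179.5 and 184 CPM in CEBPA-first and 299.5, 327 and 373 CPM in CSF3R-first (log2 fold change -0.997, standard error 0.15, edgeR adjusted p = 0.000261). Slc18a2, the transporter that loads histamine into granules, was the other gene called higher (log2 fold change 1.03, standard error 0.17, edgeR adjusted p = 0.000459), and without CSF3R-first replicate A its log2 fold change was 0.85 and without CEBPA-first replicate D 0.96, both short of a call. Summed levels of this list, in which the receptor gene Csf2rb2 was most abundant, overlapped, at 2338 to 3056 CPM in CEBPA-first and 2142 to 2811 CPM in CSF3R-first.

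The promoter window of Fcer1a (RefSeq, GRCm38.p6, chr1:173227180-173227479, minus strand) is shown with its C/EBP letters in capitals, as an example from a gene called higher. As given above, these letters stood in 10.8% of windows of genes called higher and 12.7% of those called lower.
Fcer1a: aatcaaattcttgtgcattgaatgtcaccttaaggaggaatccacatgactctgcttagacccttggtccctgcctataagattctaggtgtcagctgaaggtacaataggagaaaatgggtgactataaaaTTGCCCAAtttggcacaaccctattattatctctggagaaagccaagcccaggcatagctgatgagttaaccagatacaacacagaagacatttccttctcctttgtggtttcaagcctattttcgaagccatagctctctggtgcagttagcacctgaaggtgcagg

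Of 10 eosinophil genes, 2 were called lower, a share not far from the 10.3% of all tested genes: Prg2 (major basic protein) at 16.2, 16.6, 14.9 and 22.5 CPM in CEBPA-first and 99.9, 37.5 and 54.6 CPM in CSF3R-first (log2 fold change -1.86, standard error 0.28, edgeR adjusted p = 0.000315) and Prg3 (log2 fold change -1.56, standard error 0.31, edgeR adjusted p = 0.00185). Of 13 lymphoid genes that passed the filter, 6 were called higher and 1 lower (5 and 1 without CSF3R-first replicate A), against 2.57% and 10.3% of all tested genes. The other 16 of the 29 on the list did not pass the filter, so these counts do not describe the whole list. Dntt, the terminal transferase of lymphoid progenitors, was at 6.25, 4.52, 6.11 and 4.903 CPM in CEBPA-first and 0.243, 0.865 and 0.237 CPM in CSF3R-first (log2 fold change 3.62, standard error 0.41, edgeR adjusted p = 2.79e-05), and Gata3 at 0.531, 0.733, 1.31 and 0.587 CPM in CEBPA-first and 0.0812, 0.221 and 0.158 CPM in CSF3R-first (log2 fold change 2.33, standard error 0.42, edgeR adjusted p = 0.000716). Il7r, the IL-7 receptor, went the other way at 7.98, 7.09, 8.43 and 7.303 CPM in CEBPA-first and 26.5, 22.6 and 25.4 CPM in CSF3R-first (log2 fold change -1.69, standard error 0.13, edgeR adjusted p = 1.01e-06). Ighm, the constant region of the IgM heavy chain, was at 78.3, 59.8, 63.8 and 58.2 CPM in CEBPA-first and 19.9, 15.8 and 15.8 CPM in CSF3R-first (log2 fold change 1.92, standard error 0.12, edgeR adjusted p = 1.94e-07). The summed lymphoid level was 80.8 to 99.2 CPM in CEBPA-first and 84.8 to 117 CPM in CSF3R-first. The most abundant member of this list, Nkg7, is also on the azurophil list, so the sum does not measure lymphoid content. Of 13 dendritic cell genes, 2 were called higher and 4 lower (2 and 3 without CSF3R-first replicate A), against 2.57% and 10.3% of all tested genes. Itgax, which encodes CD11c, was at 1.42, 1.84, 1.65 and 1.47 CPM in CEBPA-first and 10.2, 5.74 and 5.26 CPM in CSF3R-first (log2 fold change -2.14, standard error 0.23, edgeR adjusted p = 1.55e-05).

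Several of the largest rises among well-counted genes belong to no list above. Igfbp4, an inhibitor of insulin-like growth factors, was at 988, 1011, 1001 and 939 CPM in CEBPA-first and 285, 333 and 363 CPM in CSF3R-first (log2 fold change 1.59, standard error 0.12, edgeR adjusted p = 8.69e-07). Sema3c, a secreted semaphorin, was at 129, 138, 125 and 92.4 CPM in CEBPA-first and 23.6, 26.7 and 24.3 CPM in CSF3R-first (log2 fold change 2.28, standard error 0.16, edgeR adjusted p = 1.07e-06), and Akr1c18, a progesterone-degrading enzyme, at 101, 71.01, 91.6 and 65.9 CPM in CEBPA-first and 25.5, 13.1 and 15.9 CPM in CSF3R-first (log2 fold change 2.18, standard error 0.23, edgeR adjusted p = 2.7e-05). Sema3c and Akr1c18 were at 0.254 and 0.119 CPM on average in CSF3R-only (n = 4), below every library of both other groups. Gpr34, a receptor for lysophosphatidylserine, was at 27.04, 31.7, 29.2 and 37.6 CPM in CEBPA-first and 8.34, 9.14 and 9.34 CPM in CSF3R-first (log2 fold change 1.81, standard error 0.12, edgeR adjusted p = 4.69e-07), and Hspa2, a heat shock protein 70, at 149, 141, 155 and 105 CPM in CEBPA-first and 39.5, 47.03 and 42.9 CPM in CSF3R-first (log2 fold change 1.67, standard error 0.12, edgeR adjusted p = 6.98e-07). Nrgn, which encodes the calmodulin-binding neurogranin, rose as well (log2 fold change 1.84, standard error 0.20, edgeR adjusted p = 2.94e-05).

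Several of the largest falls also stand outside the lists. Timp3, an inhibitor of metalloproteases, was at 1.47, 1.71, 2.02 and 1.53 CPM in CEBPA-first and 21.2, 32.7 and 43.1 CPM in CSF3R-first (log2 fold change -4.28, standard error 0.23, edgeR adjusted p = 2.03e-07). Fam110c, a microtubule-associated protein gene, was at 1.13, 0.887, 1.27 and 0.804 CPM in CEBPA-first and 19.4, 11.2 and 14.1 CPM in CSF3R-first (log2 fold change -3.88, standard error 0.19, edgeR adjusted p = 9.7e-08). Timp3 was lowest in replicate A among CSF3R-first libraries and Fam110c was highest in it. Among genes called lower, 73.9% were protein-coding, against 89.6% of those called higher and 82.2% of all tested genes. The median of the average log2 CPM was 0.91 for genes called lower and 0.30 for genes called higher, against 3.99 for all tested genes.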

How the data were processed

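Gene counts of 11 libraries were used as the authors deposited them: whole-number raw counts per Ensembl gene, not normalized. By the study's methods, RNA was made into cDNA with a low-input kit and sequenced as 100-base single reads, which were trimmed with Trimmomatic and aligned with STAR, and the submitters' processing notes name DESeq2 and the build mm10. The counting tool, the annotation and whether strand was used are not given in the sources used here, so reads of overlapping and antisense genes may not be separated. Of 51912 identifiers, 51633 matched GENCODE vM21 (GRCm38), from which symbols and coordinates were taken, and 23409 genes had no count.

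From the counts, edgeR 4.0.16 (R 4.3.3) was used with the filterByExpr filter, TMM normalization and a robust quasi-likelihood fit of all 3 groups, which tested CEBPA-first minus CSF3R-first with Benjamini-Hochberg adjustment over 15703 genes. The standard error is the fold change divided by the root of F. Total counts of 47905747 to 72268346 per library set the precision. Members, gene lists and tests were chosen with earlier results of these data known. Genes were named by these rules: the 12 largest rises and falls among called genes whose average log2 CPM was 4 or more and whose groups did not overlap, the 4 smallest p-values in each direction, genes the study names, up to 4 members of each list with the largest change plus its most abundant member, and the 3 longest runs of neighbouring genes called in 1 direction. Other genes were chosen after their values were seen. Some genes that meet these rules are not reported here. Near-identical transcripts were found with BLAST 2.17.0 (at least 97% identity over 100 bases). Promoter windows are from RefSeq (GRCm38.p6), 1 first-listed start per gene. The test was checked on simulated counts of 15378 genes. Of 50 genes changed at each size, 45 were recovered at 1.5-fold, 48 at 2-fold, 50 at 4-fold and 50 at 8-fold. Of the unchanged genes 9 passed the adjusted p and 3 were called. The changed genes were drawn from those with an average log2 CPM above 2. Called genes had medians of 0.91 (lower) and 0.3 (higher), so the recovery does not describe most of them. The simulated spread was the one fitted to these libraries, and no simulated library was set apart like CSF3R-first replicate A. Alternatives were DESeq2 1.42.0, other scalings and filters, a fit of both groups alone, a replicate block, a test against the fold threshold and each library left out.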

Additional observations from a re-analysis of the deposited data

Results flagged for a closer look

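In 6 named genes 1 CEBPA-first library lay apart from the other 3 by Dixon's test, which was run on 237 groups of 4, where chance gives about 1 in 20, or 11.8. Groups of 3 were not tested, so CSF3R-first, which holds the divergent replicate A, is not covered. Replicate D held 4 of these values: Cst7 was at 64.98 CPM, Jak2 at 159.3 CPM, Ptges at 0.7406 CPM and Scd2 at 591.3 CPM. Replicate B held the others, with Il1b at 5.081 CPM and Rrp12 at 106.2 CPM.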

How the results depend on the processing

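Of 237 named genes, 116 kept their direction and their side of the adjusted p threshold under all 16 alternatives. Most of the others moved in 1 setting: the test against the fold threshold, a stricter question, took 113 genes out of passing. Any other alternative took out at most 6. A call lost through the size of the fold change alone counts here as kept. Testing against the fold threshold itself (glmTreat) called 798 genes, 149 higher and 649 lower, and requiring at least 10 counts in every library called 1219, 190 higher and 1029 lower, with fewer genes tested. DESeq2 called 1975 genes, 1956 of them shared with the same direction. Leaving out each library in turn gave 1726 to 2187 called genes, 356 to 441 higher, 1370 to 1755 lower and 6013 to 7661 by adjusted p alone. Without CSF3R-first replicate A, Slc7a5 turned from 0.12 (not passed) to -0.02, and was 0.21 without replicate C; the cause was not tested. Over the alternatives, 77.6% to 84.4% of called genes were lower. Scaling by library size alone moved the median of all genes to 0.05. With this scaling, and also with no count filter, 1 gene of the azurophil list fell in place of 3. Whether replicate letters pair the libraries was not tested. Deviations of same-letter libraries correlated at 0.287 (A), 0.204 (B) and -0.107 (C), and those of different letters at -0.341 to 0.384. A fit with the letter as a replicate block called 2027 genes, 423 higher and 1604 lower, with 7706 past adjusted p alone. Genes at a few counts per library, such as 5730420D15Rik, are limited by depth.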
